A study of Homo sapiens with 18 samples.

Results

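A set of 8 members of the collagen gene family were followed in 3 leukemia cell lines after knockdown of the transcription factor SOX11. They were COL1A1, COL5A1, COL5A3, COL6A1, COL6A2, COL6A3, COL18A1 and COL24A1, and they were 8 of the 44 collagen genes, and of the 26941 genes, in the count tables. They were selected with measured values of these data known. COL1A1 was taken because it was lower after the knockdown in REH, and COL6A3 because it was lower and COL5A3 because it was higher in RCH-ACV. The others were taken as further members of the family. The REH and RCH-ACV knockdown values of these genes are therefore descriptions and carry no test. The lists of related genes and markers used below were also chosen with earlier results of these data known. Their shares of called genes are descriptions too. The reasons for the selection named no change in 697, and the comparison there was tested, although earlier results of that line may have been known. Of the comparisons of the lines with each other, those of COL1A1, COL5A1 and COL18A1, which were counted in all 3 lines, were tested.

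RNA sequencing of mRNA covered 18 samples, 3 for each of 6 groups. REH, 697 and RCH-ACV are established human lines of B-cell precursor acute lymphoblastic leukemia. Each line received either a SOX11 siRNA or a control siRNA at 300 nM by nucleofection and was collected after 48 h, so that the controls were nucleofected too. The line, its culture and any library batch of a line cannot be told apart. The total count per library lay between 7039594 and 16592492, and 3 counts, the limit that a count of 0 allows, corresponded to between 0.181 and 0.426 CPM (counts scaled to a common library size of 1000000) in a library, for counting error only.

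SOX11 itself was lower in every knockdown sample than in every control sample of its line. It fell to 56.4% of the control level in REH, to 53.0% in 697 and to 62.7% in RCH-ACV, with adjusted p = 1.45e-08, 2.20e-04 and 2.46e-06 in edgeR's quasi-likelihood test. At least 11 of 12 B-cell precursor markers had more than 3 counts in every group, with a summed level of 4953 to 8953 CPM per sample, and T cell markers summed to at most 0.664 CPM. The third SOX11 siRNA sample of RCH-ACV stood apart, since 973 genes were called in RCH-ACV with all 6 samples, 2479 without it, and between 386 and 543 when any other sample was left out. Members' fold changes in RCH-ACV are given with and without it.

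Collagens are secreted proteins of 3 polypeptide chains wound into a triple helix, and each chain has its own gene. Type I collagen, built mainly from 2 α1(I) chains and 1 α2(I) chain, forms the thick fibrils of bone, skin and tendon. Type V is a minor fibrillar collagen that starts and limits fibril growth, and type VI forms beaded microfibrils around cells from the products of COL6A1, COL6A2 and COL6A3. Type XVIII is a heparan sulfate-carrying collagen of basement membranes whose C-terminal fragment is endostatin, and type XXIV is a fibrillar collagen known from developing bone. In bone marrow these proteins come chiefly from stromal and bone-lining cells, and leukemia cells meet them through integrins and other receptors.

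The plot of levels by sample gives the whole pattern. COL1A1, COL5A1 and COL18A1 were counted in every sample of every line. COL6A1, COL6A2, COL6A3 and COL5A3 were found at 1 CPM or more in RCH-ACV, whereas in REH all 6 samples had 0 counts of each. COL24A1 was low everywhere and highest in 697.

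**Figure D1:**
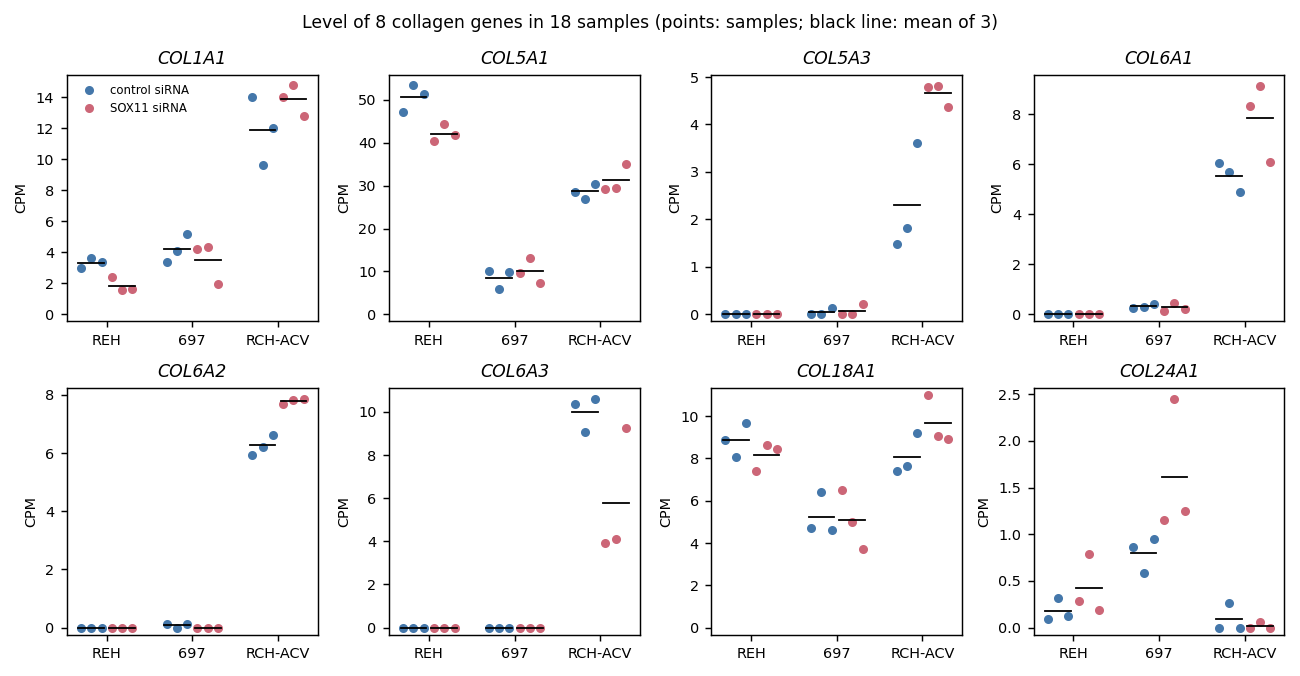
Level of the 8 collagen genes in CPM (y axis, linear, a separate scale for each gene) in REH, 697 and RCH-ACV, with control siRNA in blue and SOX11 siRNA in red. Each point is 1 sample and each black line the mean of 3, and the COL6A3 panel shows the third RCH-ACV knockdown sample at 9.27 CPM beside controls of 9.08 to 10.6 CPM.

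The promoter windows of COL5A3, COL6A2 and COL6A3 are shown because these genes were counted at 1 CPM or more in RCH-ACV and hardly or not at all in the other lines, and because COL5A3 and COL6A3 moved in opposite directions there. Each window runs from 250 bases before to 50 bases after the RefSeq transcript start and is printed 5′ to 3′ on the gene's strand, from build GRCh38.p14. The windows were chr19:10010455-10010754 on the minus strand for COL5A3, chr21:46097862-46098161 on the plus strand for COL6A2 and chr2:237414115-237414414 on the minus strand for COL6A3. Capitals mark matches to 4 motifs: the SOX cores ACAAAG and ACAATG and the CCAAT box, searched on both strands, and the TATA box TATAAA, searched on the gene's strand.
COL5A3: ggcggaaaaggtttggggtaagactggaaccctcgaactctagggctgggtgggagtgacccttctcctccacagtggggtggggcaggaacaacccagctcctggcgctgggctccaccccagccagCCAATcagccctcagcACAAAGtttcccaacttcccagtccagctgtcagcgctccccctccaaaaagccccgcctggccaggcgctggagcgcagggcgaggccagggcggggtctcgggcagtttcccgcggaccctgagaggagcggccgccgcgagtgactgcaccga
COL6A2: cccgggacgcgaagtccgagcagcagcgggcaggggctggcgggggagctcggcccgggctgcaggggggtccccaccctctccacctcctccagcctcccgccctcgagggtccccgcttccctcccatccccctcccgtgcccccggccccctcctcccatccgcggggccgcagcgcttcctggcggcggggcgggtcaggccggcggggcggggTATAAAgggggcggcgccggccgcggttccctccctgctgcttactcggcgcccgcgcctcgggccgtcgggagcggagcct
COL6A3: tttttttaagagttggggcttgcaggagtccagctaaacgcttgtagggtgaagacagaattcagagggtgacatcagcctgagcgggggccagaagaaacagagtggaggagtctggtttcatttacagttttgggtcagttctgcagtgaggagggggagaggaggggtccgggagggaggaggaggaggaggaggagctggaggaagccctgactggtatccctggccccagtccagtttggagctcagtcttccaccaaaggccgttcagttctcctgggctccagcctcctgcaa

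The COL5A3 window held 1 CCAAT match starting at position -122 and 1 ACAAAG match starting at -106. The COL6A2 window held 1 TATAAA match starting at -32, and the COL6A3 window held none of the 4 motifs. No window was held for COL6A1. The windows held for COL5A1, COL18A1 and COL24A1, not printed, had no match to either SOX core. Among all 35116 windows of the same length, ACAAAG was in 16.1%, ACAATG in 10.8%, CCAAT in 34.6% and TATAAA in 7.33%. GC content was 66.7% for COL5A3, 79.3% for COL6A2 and 56.3% for COL6A3 against a median of 58.7%, and the number of CG dinucleotides was 17, 36 and 4 against a median of 14. COL6A3 thus had the fewest CG dinucleotides of the 3 windows. A match describes letters only and says nothing on binding.

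COL1A1 encodes the α1 chain of type I collagen and lies at chr17:48261462-48278993 on the minus strand (build hg19), with 51 exons in its canonical transcript. In REH its level was 3.01, 3.599 and 3.35 CPM in the controls and 2.38, 1.57 and 1.61 CPM with SOX11 siRNA. All 3 knockdown samples were below all 3 controls, at 26 to 46 counts in controls and 12 to 25 counts in knockdown samples. The log2 fold change was -0.81 ± 0.24 (SE, n = 3 per group), or 57.0% of control.

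In 697 the COL1A1 levels were 3.34, 4.08 and 5.16 CPM in controls and 4.22, 4.31 and 1.92 CPM with SOX11 siRNA. These groups overlapped. The log2 fold change was -0.28 ± 0.31 (95% interval -0.96 to 0.41), with an adjusted p = 0.921 in edgeR. In RCH-ACV the levels were 14.04, 9.60 and 12.0 CPM in controls and 14.01, 14.8 and 12.8 CPM with SOX11 siRNA, again overlapping, with a log2 fold change of 0.22 ± 0.13, and 0.28 without the third SOX11 siRNA sample.

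The second chain of type I collagen was hardly counted. COL1A2, which encodes the α2(I) chain, had 0 counts in the 12 samples of REH and 697 and 2 counts in all in RCH-ACV. COL3A1, the type III collagen gene that is usually expressed with type I in stromal cells, had 0 counts in all 18 samples. COL1A1 was therefore measured without its usual partner in all 3 lines.

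COL5A1 encodes the α1 chain of type V collagen and lies at chr9:137533649-137736689 on the plus strand, with 66 exons. It had the highest level per kilobase of canonical transcript among the 8 genes in the controls of each line, at 6.01 CPM per kb in REH, 1.01 in 697, where COL18A1 was close at 0.969, and 3.39 in RCH-ACV. In REH it measured 47.2, 53.5 and 51.4 CPM in controls and 40.3, 44.3 and 41.8 CPM with SOX11 siRNA. Every knockdown sample was below every control, and the log2 fold change was -0.26 ± 0.06, or 83.4% of control. The relative change was smaller than that of COL1A1 and rested on 338 or more counts in each sample.

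In 697 COL5A1 measured 10.0, 5.83 and 9.77 CPM in controls and 9.73, 13.2 and 7.35 CPM with SOX11 siRNA. The groups overlapped, and the log2 fold change of 0.22 ± 0.24 (95% interval -0.32 to 0.76) had an adjusted p = 0.920 in edgeR. In RCH-ACV the values were 28.5, 27.0 and 30.4 CPM in controls and 29.3, 29.4 and 35.0 CPM with SOX11 siRNA, with a log2 fold change of 0.11 ± 0.09. Here too the groups overlapped, and the value was 0.03 without the third SOX11 siRNA sample, the highest of the 6.

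COL5A3 encodes the α3 chain of type V collagen, a chain known from fewer tissues than α1, and lies at chr19:10070237-10121180 on the minus strand with 67 exons. Its SOX core and CCAAT matches are shown in the printed window. It had 0 counts in all 6 REH samples and 3 counts in all in 697. In RCH-ACV it measured 1.48, 1.82 and 3.61 CPM in controls and 4.797, 4.81 and 4.36 CPM with SOX11 siRNA. All knockdown samples were above all controls, and the third control was the highest of the controls. The log2 fold change was 1.01 ± 0.25, or 2.01-fold, on 58 counts in controls and 158 in knockdown samples. It was 1.05 without the third SOX11 siRNA sample and 1.5 without the third control.

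COL5A2, which encodes the α2 chain that joins COL5A1 in the common type V trimer, was low. Its control mean was 1.78 CPM in REH, 0.413 CPM in 697 and 1.39 CPM in RCH-ACV. The knockdown samples overlapped the controls in each line. Its log2 fold change was 0.13 ± 0.26 in REH (adjusted p = 0.872) and -0.13 ± 0.31 in RCH-ACV (adjusted p = 0.854) in edgeR, and it was too low to be tested in 697.

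COL6A1 and COL6A2 lie on the same strand of chromosome 21, at chr21:47401684-47424964 with 35 exons and chr21:47518026-47552762 with 28 exons, and encode the short α1 and α2 chains of type VI collagen. COL6A3, at chr2:238232646-238322971 on the minus strand with 44 exons, encodes the long α3 chain. In REH none of the 3 had a count in any sample. In 697 COL6A1 had 14 counts over 6 samples, COL6A2 had 2 counts, both in controls, and COL6A3 had none. RCH-ACV was the line in which all 3 chains were counted.

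In RCH-ACV COL6A1 measured 6.05, 5.71 and 4.89 CPM in controls and 8.33, 9.14 and 6.11 CPM with SOX11 siRNA. The groups did not overlap, although the lowest knockdown sample was just above the highest control. COL6A2 measured 5.94, 6.22 and 6.63 CPM in controls and 7.70, 7.82 and 7.85 CPM with SOX11 siRNA, without overlap. Their log2 fold changes were 0.53 ± 0.17 and 0.31 ± 0.14, and neither was called in the main fit. COL6A1 was called without the third SOX11 siRNA sample and with no filter on low counts, and COL6A2 in no alternative.

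COL6A3 went the other way in the same samples. It measured 10.4, 9.08 and 10.6 CPM in controls and 3.91, 4.09 and 9.27 CPM with SOX11 siRNA. The first and second knockdown samples were below all controls, while the third lay between the lowest and the highest control. The log2 fold change was -0.86 ± 0.23, or 55.0% of control, and -1.32 without the third SOX11 siRNA sample. Leaving out that sample gave 0.67 for COL6A1 and 0.31 for COL6A2.

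Per kilobase of canonical transcript, the RCH-ACV control means were 1.32 for COL6A1, 1.82 for COL6A2 and 0.951 CPM per kb for COL6A3. With SOX11 siRNA they were 1.87, 2.26 and 0.547 CPM per kb. COL6A3 was the lowest of the 3 chains in both groups, and it was lower still in the knockdown samples. The counted RefSeq transcript can differ in length from the canonical one, so the order between chains is approximate. The kept COL6A3 transcript held 436 counts over the 18 samples, against 101 for the one of its 5 transcripts with the fewest.

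COL18A1, at chr21:46825080-46933634 on the plus strand with 42 exons, encodes the α1 chain of type XVIII collagen. In REH it measured 8.85, 8.06 and 9.67 CPM in controls and 7.42, 8.65 and 8.44 CPM with SOX11 siRNA, with a log2 fold change of -0.09 ± 0.13. In 697 it measured 4.70, 6.41 and 4.61 CPM in controls and 6.53, 5.01 and 3.73 CPM with SOX11 siRNA, with a log2 fold change of -0.05 ± 0.24 (95% interval -0.59 to 0.48, adjusted p = 0.986 in edgeR). In RCH-ACV it measured 7.42, 7.65 and 9.19 CPM in controls and 11.0, 9.08 and 8.94 CPM with SOX11 siRNA, with a log2 fold change of 0.23 ± 0.14, and 0.26 without the third SOX11 siRNA sample. The groups overlapped in every line. COL18A1 overlaps SLC19A1, the reduced folate carrier gene on the opposite strand, which had 7119 counts over the 18 samples against 1271 for COL18A1. The strand setting of the counting was not given in the sources used here, so reads of the shared stretch may be assigned to either gene.

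COL24A1, at chr1:86194916-86622626 on the minus strand with 60 exons, encodes the chain of type XXIV collagen. It was below the filter on low counts in all 3 lines and was not tested in the main fits. In 697 it measured 0.866, 0.583 and 0.95 CPM in controls and 1.152, 2.45 and 1.24 CPM with SOX11 siRNA, on 18 and 41 counts. The groups did not overlap. With a filter of more than 1 CPM in at least 3 samples the log2 fold change was 0.99 ± 0.43 with an adjusted p = 0.570 in edgeR, and with no filter it was 1.00 ± 0.43 with an adjusted p = 0.634. In REH it had 6 counts in controls and 11 with SOX11 siRNA, and in RCH-ACV 2 and 1.

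Counted over the members, 3 of 8 passed the filter and were tested in REH, while 697 had 3 and RCH-ACV had 7. In REH 2 of the 3, COL1A1 and COL5A1, were called lower at an adjusted p under 0.05 and none higher, where 4.65% of all 12787 genes tested were called, 2.64% higher and 2.01% lower. The same 2 did not overlap between groups, as was the case for 21.5% of all genes tested. In 697 none of the 3 was called or free of overlap, where 0.559% of 12169 genes were called, 0.0822% higher and 0.477% lower, and 12.6% did not overlap. At an unadjusted p under 0.05 none of the 3 passed in 697 either, and DESeq2 called none.

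In RCH-ACV 2 of the 7 were called, COL5A3 higher and COL6A3 lower, where 7.51% of 12963 genes were called, 3.59% higher and 3.92% lower. COL5A3, COL6A1 and COL6A2 did not overlap between groups, against 25.8% of all genes tested. Members that passed the filter only through the line or group in which they are high are among these. Nothing is read from the REH and RCH-ACV counts, since these contrasts chose the genes.

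**Figure D2:**
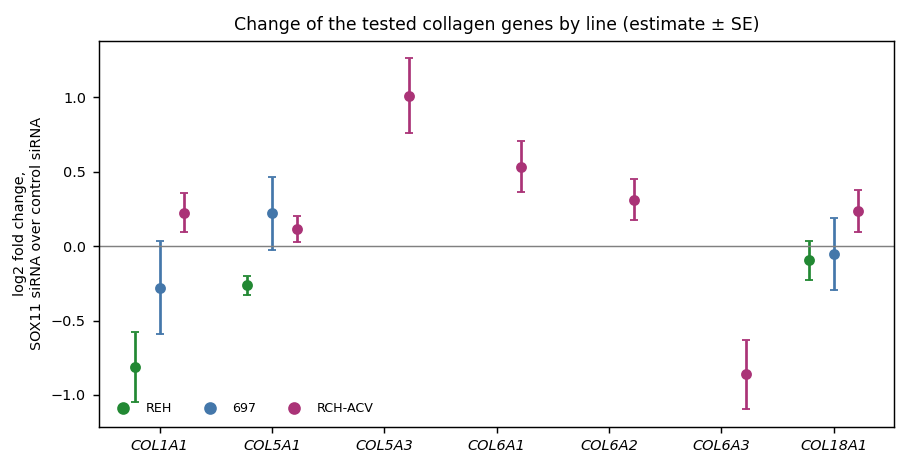
Log2 fold change of SOX11 siRNA over control siRNA (y axis) for the 7 collagen genes tested in at least 1 line, with the SE as error bars, 3 samples per group, REH in green, 697 in blue and RCH-ACV in purple. COL5A3 and COL6A3 lie at 1.01 and -0.86 in RCH-ACV, COL1A1 at -0.81 in REH, and all error bars of 697 reach 0.

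The calls of COL1A1 and COL5A1 in REH and of COL6A3 in RCH-ACV were lost in DESeq2 and in 1 fit over the 18 samples, while that of COL5A3 was kept in both. All these fits reuse the samples on which members were chosen. A kept call is therefore a description of how the value depends on the fit, and no test of the gene. The 4 called values also differ in how far they rest on single samples. COL1A1 in REH ranged from -1.05 to -0.69 when each sample was left out in turn and was called in 1 of the 6 fits, the one without the first SOX11 siRNA sample. The call was lost at -0.73 and -0.69 without the second and the third SOX11 siRNA sample and at -0.88, -0.74 and -0.81 without the first, the second and the third control. COL5A1 in REH ranged from -0.31 to -0.22 and lost its call in 3 of 6, without the first SOX11 siRNA sample (-0.23) and without the second (-0.22) or the third control (-0.25). Its direction stayed negative in all 6.

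COL5A3 in RCH-ACV ranged from 0.76 to 1.5 and lost its call in 4 of 6, without the first (1.00) or second (0.98) SOX11 siRNA sample and without the first (0.76) or second (0.88) control. COL6A3 ranged from -1.32 to -0.57 and was called only without the third SOX11 siRNA sample. It lost its call without the first (-0.72) or second (-0.57) SOX11 siRNA sample and without any 1 of the controls (-0.83, -0.92 and -0.82). No value changed sign. With 1 sample fewer, the fits had fewer samples to estimate the spread.

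**Figure D3:**
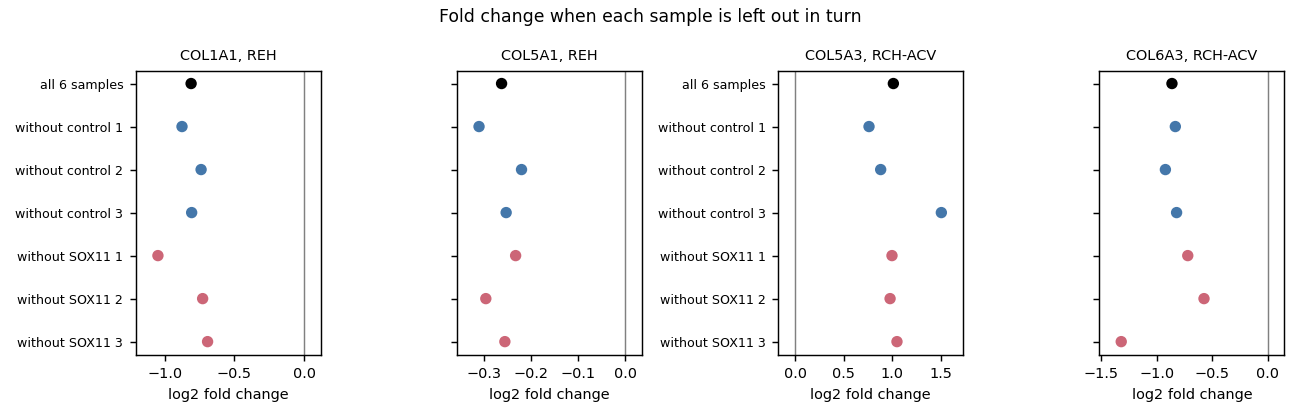
Log2 fold change (x axis) of the 4 called members with all 6 samples of the line (black) and with each control siRNA sample (blue) or SOX11 siRNA sample (red) left out in turn, 1 panel per gene and line. The values keep their side of 0 (grey line), and COL6A3 moves from -0.86 to -1.32 without the third SOX11 siRNA sample.

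Between the control samples of the lines, larger shares of all genes were called than between siRNA groups. This comparison asks in which leukemia line each collagen gene is expressed. COL5A3 and COL6A3 were selected on their changes in RCH-ACV, which requires that they be counted there, and with COL6A1 and COL6A2 they passed the filter through that line, so that a higher level in RCH-ACV was fixed for these 4 and is a description. Of the other 3 members tested, COL1A1, COL5A1 and COL18A1 were all higher in RCH-ACV than in 697 (64.2% of all 13686 genes tested were called in either direction). Against REH, COL1A1 was higher in RCH-ACV, COL5A1 was lower and COL18A1 was not called (73.7% of all genes called). Between 697 and REH, COL5A1 and COL18A1 were lower in 697 and COL1A1 was not called (76.2% of all genes called). Shares of called genes this high mean that a difference between lines is common for any gene.

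COL1A1 was highest in RCH-ACV, at 11.9 ± 2.23 CPM (SD, n = 3), against 4.19 ± 0.91 in 697 and 3.32 ± 0.29 in REH. RCH-ACV was 3.59-fold above REH (adjusted p = 3.40e-08) and 2.87-fold above 697 (adjusted p = 9.93e-07) in edgeR. The log2 difference between 697 and REH, 0.32 ± 0.23, had an adjusted p = 0.205. COL5A1 had another order, 50.7 ± 3.23 CPM in REH, 28.6 ± 1.70 in RCH-ACV and 8.54 ± 2.35 in 697. Neighbours in this order differed 1.76-fold (adjusted p = 4.96e-07) and 3.33-fold (adjusted p = 2.25e-09). COL18A1 was at 8.86 ± 0.80 CPM in REH and 8.09 ± 0.96 in RCH-ACV, which did not pass the test (adjusted p = 0.527), and at 5.24 ± 1.01 in 697, below REH (adjusted p = 5.31e-04) and RCH-ACV (adjusted p = 0.00369).

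The type VI genes and COL5A3 were counted at 1 CPM or more in RCH-ACV alone, and their differences are given with no test. Against REH, with the REH level set to 3 counts over its 3 control libraries, COL6A3 was at least 104-fold higher, COL6A2 at least 65.05-fold, COL6A1 at least 57.6-fold and COL5A3 at least 24.0-fold. Against 697, COL6A3 was at least 74.8-fold higher and COL6A1 17.0-fold higher, on 7 counts of COL6A1 in the 697 controls. The values given as at least leave out the counting error of the RCH-ACV counts. The 697 controls had 2 counts of COL6A2 and 1 of COL5A3. The ratios of RCH-ACV to 697 were 69.9 (95% exact counting interval 19.0 to 582) for COL6A2 and 51.6 (8.91 to 2075) for COL5A3.

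Between 697 and REH these genes were near or at 0. COL6A1 had 7 counts in the 697 controls and 0 in those of REH. With the REH level set to 3 counts this is 3.26-fold higher, which leaves out the counting error of the 7 counts. COL6A2 and COL5A3 had 2 and 1 counts in 697 and 0 in REH. COL6A3 had no count in either line. COL24A1 was highest in 697, at 0.799 ± 0.19 CPM, against 0.179 ± 0.12 in REH and 0.0865 ± 0.15 in RCH-ACV, and was too low to be tested. Its 697 controls were all above its REH controls.

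Within the collagen family of 44 genes, 9 reached a mean of 1 CPM in the REH controls, 10 in 697 and 15 in RCH-ACV. Among the 8 members these numbers were 3, 3 and 7. Genes with 0 counts in all 6 samples of a line numbered 19 in REH and in 697 but 12 in RCH-ACV. In all, 9 genes had 0 counts in all 18 samples, COL3A1 among them. The 8 members made up 33.6% of the summed collagen CPM in REH controls, 4.83% in 697 and 33.2% in RCH-ACV.

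The collagen gene with the highest CPM in all 3 lines was COL27A1, the gene of a fibrillar collagen known from cartilage, with control means of 94.2 CPM in REH, 131 CPM in 697 and 110.5 CPM in RCH-ACV. COL4A1 and COL4A2, which encode the chains of the common basement membrane collagen, stood at 113 and 115.5 CPM in 697 but below 1 CPM in the other 2 lines. Per kilobase of canonical transcript, COL4A2 and COL4A1 were above COL27A1 in the 697 controls, at 17.9, 17.3 and 16.7 CPM per kb. Both type IV genes lie on chromosome 13, head to head. COL4A1 was 263.5-fold higher in 697 than in REH (adjusted p = 9.70e-19) and COL4A2 426-fold higher (adjusted p = 5.90e-18) in edgeR, on 13 and 8 counts in the REH controls.

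**Figure D4:**
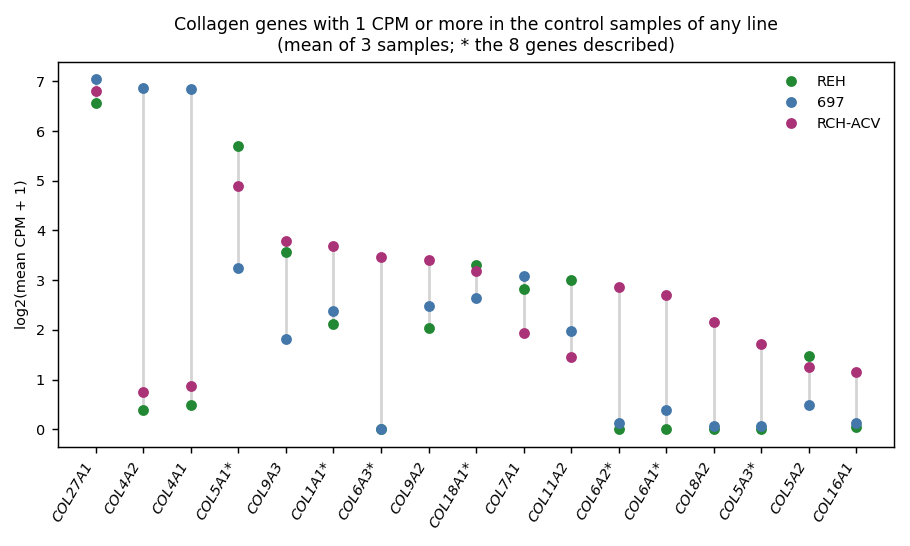
Mean level of the 17 collagen genes with 1 CPM or more in the controls of any line, as log2(mean CPM + 1) (y axis, n = 3 per point), with REH in green, 697 in blue and RCH-ACV in purple and grey lines joining the lines. Asterisks mark the genes described here, and COL6A1, COL6A2, COL6A3 and COL5A3 are at or near 0 in REH and 697.

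Of the 36 other collagen genes, 6 were tested for the siRNA effect in REH, 7 in 697 and 8 in RCH-ACV. One was called lower in REH, 1 lower in 697 and none in RCH-ACV. COL27A1 measured 88.8, 94.99 and 98.8 CPM in REH controls and 74.1, 73.8 and 73.9 CPM with SOX11 siRNA, without overlap. It fell by 0.33 on the log2 scale (SE 0.05, adjusted p = 1.80e-04) and was called in all 6 fits that left out 1 sample but not in the 1 fit over the 18 samples. COL4A2 measured 114, 115 and 118 CPM in 697 controls and 91.3, 93.1 and 92.0 CPM with SOX11 siRNA. It fell by 0.34 (SE 0.06, adjusted p = 0.0301), and the call was lost in 5 of the 6 fits that left out 1 sample (-0.35 to -0.32), all but the one without the first control. COL4A1 had a log2 fold change of -0.17 ± 0.06 with an adjusted p = 0.454.

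The median log2 fold change of all collagen genes tested was -0.26 over 9 genes in REH, -0.22 over 10 in 697 and 0.22 over 15 in RCH-ACV, beside -0.002, -0.004 and 0.005 over all genes tested. Below 0 were 8 of 9, 8 of 10 and 4 of 15. This list includes the members, which were chosen on the REH and RCH-ACV samples. Over the other collagen genes alone the medians were -0.20 over 6 genes in REH, -0.31 over 7 in 697 and 0.09 over 8 in RCH-ACV. Of these genes, 5 of 6, 6 of 7 and 3 of 8 were below 0.

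Collagen chains are hydroxylated, glycosylated and folded in the endoplasmic reticulum by a set of enzymes and chaperones. Of 22 genes of this kind, 17 were tested for the siRNA effect in each line. None was called in REH or 697, and in RCH-ACV, where 7.51% of all genes tested were called, 1 was called. In edgeR that gene was P4HA1, a catalytic subunit of prolyl 4-hydroxylase, which measured 83.5, 74.6 and 81.0 CPM in controls and 102, 120 and 110 CPM with SOX11 siRNA. It rose by 0.48 on the log2 scale (SE 0.06, adjusted p = 2.60e-04) and was called in all 6 fits that left out 1 sample. Its partner P4HB, at 324 CPM in RCH-ACV controls, had a log2 fold change of 0.16 ± 0.05 with an adjusted p = 0.0597. The medians over the list were -0.10, -0.04 and 0.02.

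Outside the cell, procollagen ends are cut off and chains are cross-linked. Of 15 genes of this group, 6, 7 and 6 were tested in REH, 697 and RCH-ACV and none was called. The 3 with the highest mean level were FURIN, a proprotein convertase, LOXL3, a lysyl oxidase, and BMP1, the procollagen C-proteinase. Their log2 fold changes in RCH-ACV were -0.04 ± 0.06, 0.14 ± 0.10 and 0.05 ± 0.09. Medians over the list were 0.15, -0.07 and 0.09. Of 13 genes of matrix proteins that associate with fibrils, 1, 1 and 5 were tested and none was called. SPARC, a collagen-binding protein, had the highest mean level of them and measured 21.9 to 24.4 CPM in RCH-ACV controls and 23.6 to 25.3 CPM with SOX11 siRNA. FBN1, the microfibril protein fibrillin, and BGN, the proteoglycan biglycan, had log2 fold changes of -0.50 ± 0.34 (adjusted p = 0.414) and -0.46 ± 0.18 (adjusted p = 0.141) there.

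Receptors through which cells bind collagen were also compared. Their list was chosen with earlier results of these data known, so its calls are a description. Of 16 genes, 7, 8 and 12 were tested in REH, 697 and RCH-ACV, and 1, 0 and 4 were called. Among all genes tested, 4.65%, 0.559% and 7.51% were called. ITGB1, the β1 chain of the collagen-binding integrins, measured 60.8, 61.7 and 62.0 CPM in REH controls and 76.2, 76.1 and 79.7 CPM with SOX11 siRNA and rose by 0.34 on the log2 scale (SE 0.05, adjusted p = 1.49e-04). In RCH-ACV it measured 167, 170 and 163.5 CPM in controls and 138, 143 and 151 CPM with SOX11 siRNA and fell by 0.21 (SE 0.05, adjusted p = 0.00964). The RCH-ACV call was lost without the first or second SOX11 siRNA sample and without the first or second control (-0.25 to -0.19 over the 6 fits).

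ANTXR1, a membrane receptor that binds collagen, was counted at most once outside RCH-ACV. It measured 31.4, 27.9 and 28.6 CPM in RCH-ACV controls and 18.3, 17.5 and 18.4 CPM with SOX11 siRNA. It fell by 0.71 on the log2 scale (SE 0.09, adjusted p = 1.00e-04) and was called in all 6 fits that left out 1 sample. LAIR1, an inhibitory collagen receptor of immune cells, fell by 0.26 in RCH-ACV (SE 0.07, adjusted p = 0.0454), and CD44, a hyaluronan receptor that also binds collagen, rose by 0.16 (SE 0.04, adjusted p = 0.0230). Both calls were kept only in the fit without the third SOX11 siRNA sample (LAIR1 -0.34 to -0.20 and CD44 0.14 to 0.19 over the 6 fits). The LAIR1 call was also lost in DESeq2 and with scaling by library size alone, and the CD44 call in the 1 fit over the 18 samples. The medians over the list were -0.03, -0.06 and 0.01.

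Proteases that degrade collagen and their inhibitors formed a list of 15 genes, of which 6, 5 and 6 were tested. Of these 2, 1 and 2 were called, all lower. The shares called lower among all genes tested were 2.01%, 0.477% and 3.92% in REH, 697 and RCH-ACV. This list too was chosen with earlier results of these data known, so nothing is read from its share. MMP2, a gelatinase that also cleaves type V collagen, had 0 counts in REH and 697. In RCH-ACV it measured 3.65, 4.02 and 5.12 CPM in controls and 1.14, 1.38 and 2.29 CPM with SOX11 siRNA and fell by 1.43 on the log2 scale (SE 0.26, adjusted p = 0.00225), with a call in all 6 fits that left out 1 sample. TIMP2, which is an inhibitor of these proteases and not a protease, measured 101, 103 and 110 CPM in 697 controls and 65.5, 62.5 and 70.0 CPM with SOX11 siRNA. It fell by 0.68 in 697 (SE 0.07, adjusted p = 0.00103) and by 0.30 in RCH-ACV (SE 0.06, adjusted p = 0.00287), with calls in all 6 fits that left out 1 sample in both lines.

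In REH the lysosomal protease CTSL measured 19.1, 16.9 and 17.3 CPM in controls and 13.6, 11.0 and 14.6 CPM with SOX11 siRNA and fell by 0.41 (SE 0.11, adjusted p = 0.0255). The membrane-type metalloprotease MMP15 fell by 0.29 (SE 0.08, adjusted p = 0.0281). The CTSL call was lost without the first or second SOX11 siRNA sample or the first or the third control, and the MMP15 call without the first or second SOX11 siRNA sample or the second control, at -0.49 to -0.32 and -0.34 to -0.19 over the 6 fits. Both calls were also lost in DESeq2 and in the 1 fit over the 18 samples. Medians over the list were -0.08, -0.62 and -0.21.

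**Figure D5:**
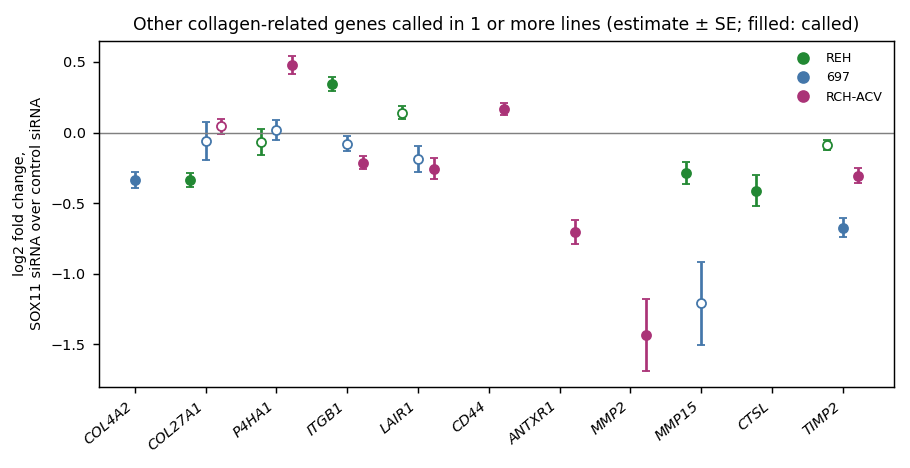
Log2 fold change of SOX11 siRNA over control siRNA (y axis) with its SE for the 11 collagen-related genes called in 1 or more lines, 3 samples per group, with REH in green, 697 in blue and RCH-ACV in purple. Filled points were called at an adjusted p under 0.05, and MMP2 in RCH-ACV is the lowest point at -1.43.

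Fibroblast and other stromal markers were compared because those cells are the textbook source of fibrillar collagen. Of 12 mesenchymal markers, COL3A1, DCN, LUM, PDGFRA and TWIST1 had 0 counts in all 18 samples. The summed level of the list was 16.8 to 20.6 CPM in REH, 90.9 to 117 CPM in 697 and 184 to 205 CPM in RCH-ACV, and it overlapped between the siRNA groups of each line. PDGFRB made up most of it. None of the 2, 3 and 4 markers tested was called for the siRNA effect in REH, 697 and RCH-ACV. Endothelial markers summed to at most 24.8 CPM, and in RCH-ACV to 18.8 to 21.3 CPM with SOX11 siRNA against 23.7 to 24.8 CPM in controls. ESAM, the only 1 of them tested in RCH-ACV, was called, beside 7.51% of all genes tested. Myeloid markers summed to 8.75 to 9.96 CPM with SOX11 siRNA and 14.1 to 15.7 CPM in controls of REH, where MPO was called lower. The part of these markers in the collagen values was not tested.

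Some B-cell precursor markers were called as well. In REH 5 of 11 tested were called, 4 higher and 1 lower, beside 4.65% of all genes. In 697 it was 3 of 12, all lower, beside 0.559%, and in RCH-ACV 5 of 12, 3 higher and 2 lower, beside 7.51%. Their summed level was 8855 to 8953 CPM with SOX11 siRNA against 8161 to 8366 CPM in controls of REH, 4953 to 5250 against 5627 to 6092 CPM in 697 and 5351 to 6481 against 6461 to 6683 CPM in RCH-ACV.

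The genes whose levels followed COL1A1, COL5A3 and COL6A3 most closely were found by Pearson's r of log2(CPM + 1) over the 18 samples after the mean of each line was subtracted, among 13342 genes. For COL1A1 they were PLXNB2 (r = 0.857), GRAMD1A (0.844) and SLC4A2 (0.839). For COL5A3 they were KCNJ18 (0.892), TRPC1 (0.880) and KCNJ12 (0.866), and KCNJ18 and KCNJ12 are near-identical copies whose reads cannot be told apart with certainty. For COL6A3 they were FUCA2 (0.991), LRRC15 (0.954) and ADCY1 (0.925). Since COL5A3 and COL6A3 were at or near 0 outside RCH-ACV, their values rest on the 6 samples of that line, and samples share their library and depth.

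Among the genes that overlap the members or lie within 5 kb of them and were in the count tables, SLC19A1 beside COL18A1 was the only one with more than 29 counts. Other annotated neighbours, mostly lncRNA genes such as COL5A1-AS1 and COL6A2-DT, were not analysed here. RDH8, close to COL5A3, COL18A1-AS1 and COL18A1-AS2, antisense to COL18A1, and 3 microRNA genes near COL5A1 had 0 counts. FTCD, near COL6A2, had 29 counts over the 18 samples against 422 for COL6A2, and H1-9P, near COL1A1, had 2 counts against 1112.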

How the data were processed

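RNA-seq read counts per RefSeq transcript were taken as deposited in 3 tables, 1 for each cell line, with 6 samples each. According to the labels and the study's methods, the authors trimmed and quality-filtered reads from stranded mRNA libraries and mapped them to hg19 with STAR 2.5.3a. They discarded reads that aligned to more locations than a set limit and made the raw counts with HOMER. FastQC 0.10.1 is named for quality control. The strand setting and annotation version were not given in the sources used here. The values had not been normalized.

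RefSeq identifiers were matched to symbols with an NCBI gene table (98% of 50678 transcripts, 99% of counts), and each of 26941 genes was represented by its most counted transcript, summed across the 18 samples. CPM values used TMM factors over the 18 samples. The siRNA effect was fitted per line, and the lines were compared in the 9 control samples, with edgeR 4.0.16 (R 4.3.3), filterByExpr, TMM and the quasi-likelihood F-test. SE is the absolute log2 fold change divided by the root of F. Genes were called at a Benjamini-Hochberg adjusted p under 0.05 over all genes tested. Samples were labelled as biological replicates of 1 line, so p-values measure the spread between cultures of that line. Replicates differed by more than sampling noise (chi-square per degree of freedom 1.28 to 4.97), so none was counted as a repeat. The procedure was tested on simulated data. A log2 change of 1 was recovered for 97% of changed genes in REH, 83% in 697 and 98% in RCH-ACV. False calls made up 5.31%, 8.16% and 5.77% of the calls there, and 6.97% to 7.69% between lines.

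The 8 genes and the gene lists were chosen with earlier results of these data known. Named genes were the members, SOX11, list genes called in any line or else the 3 with the highest mean CPM, neighbours within 5 kb, and the 3 genes most like COL1A1, COL5A3 and COL6A3. Marker genes ESAM and MPO and several other collagens (COL1A2, COL3A1, COL5A2, COL4A1) were named after their values were seen. Alternatives were RLE factors, library size alone, DESeq2 1.42.0, 2 other filters, a replicate block, all transcripts apart, 1 fit over the 18 samples, a threshold of 0.01, the knockdown samples for the comparison of lines, and leaving out each sample. Gene positions are from GENCODE v44 on hg19, and promoter windows from RefSeq on GRCh38.p14, held for 6 of the 8 genes.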

Additional observations from a re-analysis of the deposited data

Results flagged for a closer look

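For 2 collagen receptor genes, every knockdown sample was above every control in REH and below every control in RCH-ACV, where 21.5% and 25.8% of all genes tested had groups without overlap. ITGB1 had a log2 fold change of 0.34 in REH and -0.21 in RCH-ACV and was called in both. LAIR1 had a log2 fold change of 0.14 in REH, where it was not called (adjusted p = 0.0649 in edgeR), and -0.26 in RCH-ACV, where its call was lost in 5 of the 6 fits that left out 1 sample, all but the one without the third SOX11 siRNA sample (-0.34). For neither gene was this difference tested.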

How the results depend on the processing

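Of the 44 collagen genes, 9, 10 and 15 were tested for the siRNA effect in REH, 697 and RCH-ACV, and 3, 1 and 2 were called. Among all genes tested, 4.65%, 0.559% and 7.51% were called. The collagen calls in REH and RCH-ACV include members chosen on these contrasts. DESeq2 called 1 in REH and 1 in RCH-ACV. One fit over the 18 samples called 0 in REH and 1 in RCH-ACV, and a threshold of 0.01 left 1 in REH and 0 in 697 and RCH-ACV alike. With no filter on low counts 4 were called in RCH-ACV, where 1394 of all 18790 genes were called. Leaving out 1 sample gave 1 to 3 for REH, 0 to 1 for 697 and 0 to 4 for RCH-ACV. The 4 came without the third SOX11 siRNA sample, a fit in which 2479 of all 13088 genes were called. Replicate numbers did not pair the samples, since same-numbered samples correlated between -0.266 and 0.268, and 1 of 9 matched its own number best; the fit with a replicate block called 0 collagen genes in 697 and took away the COL1A1 call in REH. In 697 the members changed sign when 1 sample was left out, with ranges of -0.47 to 0.031 for COL1A1, -0.020 to 0.42 for COL5A1 and -0.27 to 0.14 for COL18A1. In the knockdown samples COL18A1 was 0.22 higher on the log2 scale in RCH-ACV than in REH, the reverse of the controls. The cause of these changes was not tested, nor was the part of the smaller number of samples in the fits that left out 1. The counts of collagen genes called between lines stayed within 1.5 times the main count in each alternative. Depth limits COL24A1, COL5A3 and the type VI genes in REH and 697, which had few or 0 counts there.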
